A study of Mus musculus with 6 samples.

Results

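The antioxidant and NADPH-producing genes controlled by NRF2 were examined in mouse intestine as a set of 10: Nfe2l2, Nqo1, Hmox1, Gclc, Gclm, Gsr, Srxn1, Txnrd1, G6pdx and Pgd. They were taken by gene symbol from the 25416 rows of the expression table, and each symbol matched 1 row. Polyadenylated RNA had been sequenced from 3 libraries of intestine labelled HET, whose genotype the series title gives as Rnf111 with the S254D change, and from 3 libraries labelled WT. The labels name intestine as the tissue and give no age, sex, strain, segment of the gut or treatment, and they do not say whether each library came from its own animal. Each level is in FPKM, fragments per kilobase of transcript, scaled to the fragments of the library, so that levels of different genes can be set side by side. All 10 members passed the filter on low values, which asked for 1 FPKM or more in 3 or more libraries.

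NRF2, the product of Nfe2l2, is a transcription factor of the bZIP family. In unstressed cells the adaptor KEAP1 holds it and hands it to a CUL3 ubiquitin ligase for destruction, and oxidants or electrophiles that modify KEAP1 let it build up. It then pairs with small MAF proteins at antioxidant response elements, and BACH1 competes for the same elements. Its targets make glutathione, recycle thioredoxin and glutathione, supply the NADPH that both systems consume, and detoxify quinones and heme. In the gut it is best known for induction by plant compounds in the diet and for protection of the epithelium. Rnf111 (Arkadia) is a ubiquitin ligase best known for strengthening TGF-beta signals, and its human form has been reported to ubiquitinate SUMO-modified NRF2 in cultured cells.

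Depth, as estimated from the lowest FPKM values, lay between 19800000 and 22000000 fragments for HET libraries and between 20800000 and 25900000 for WT libraries. Rnf111 itself lay at 4.43, 4.83 and 4.25 FPKM in HET and at 4.97, 5.29 and 5.34 in WT (limma adjusted p = 0.0609), and a substitution is not checked by a transcript level. Markers of the intestinal epithelium such as Vil1, Cdx2 and Epcam were present in every library, and their summed level over 7 genes was 4504 to 5298 FPKM in HET and 4488 to 4559 in WT. Of those 7 markers 3 were higher in HET and 0 were lower. A separate list of 6 markers of small-intestinal enterocytes summed to 13422 to 16005 FPKM in HET and 10707 to 12200 in WT, with no overlap, and 2 of the 6 (Fabp2 and Mttp) were higher and 0 lower. Their part in the members' values was not tested. Markers of several stromal, immune and secretory cell types were lower in HET, among them all 7 of fibroblasts (21.4 to 33.8 against 125 to 144 summed FPKM), all 9 of macrophages (99.7 to 171 against 244 to 262), all 6 of smooth muscle (165 to 206 against 289 to 320) and all 5 of Paneth cells (81.1 to 455 against 1869 to 5845). Erythroid markers went the other way, with 3 of 4 tested genes higher in HET. In bulk tissue fewer cells of a type and less RNA per cell cannot be told apart.

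Of the 10 members, 5 were higher in HET, 0 were lower and 5 did not pass the threshold, a limma adjusted p under 0.05 over all 11870 genes tested. Nqo1 and Gclc were 1.93-fold and 1.90-fold higher, G6pdx was 1.56-fold higher, and Nfe2l2 and Pgd were 1.26-fold and 1.18-fold higher. Gclm, Gsr, Srxn1, Txnrd1 and Hmox1, textbook targets of the same factor, did not pass. Among all tested genes 10.7% were called higher, 35.7% lower and 46.4% in either direction. The median log2 fold change of the members was 0.18, against -0.12 over all tested genes. The HET and WT values did not overlap for 7 of the 10 members, while 59.8% of all tested genes had no overlap.

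**Figure D1:**
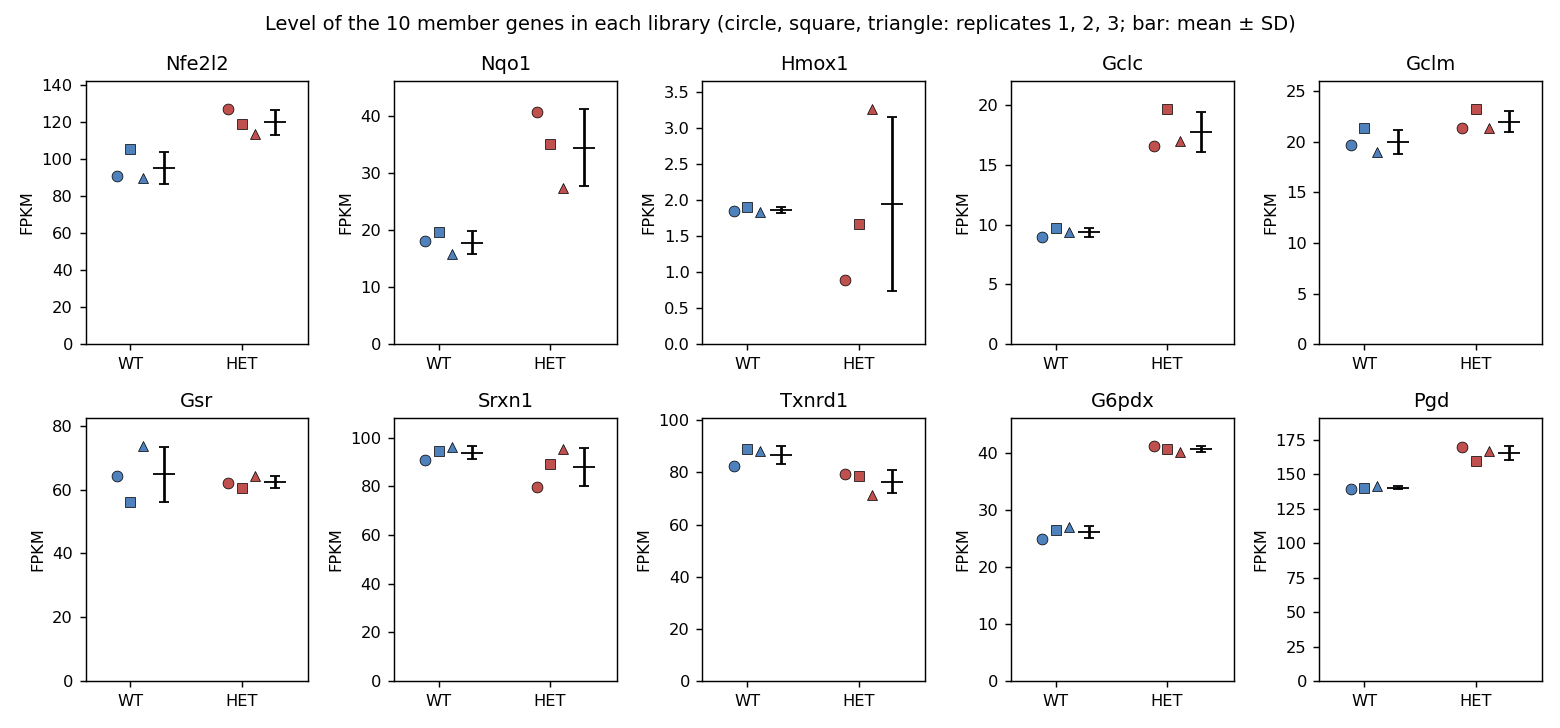
FPKM (vertical axes, from 0) of each member in the 3 WT and 3 HET libraries, with circle, square and triangle for replicates 1, 2 and 3 and a bar for mean ± SD. Nqo1, Gclc and G6pdx show HET points well above all WT points, Gclm and Txnrd1 show groups that barely separate, and Hmox1 shows HET points spread from 0.891 to 3.26 around tight WT points.

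Nfe2l2, the regulator, was among the more abundant transcripts, above 94.3% of tested genes in mean level. It lay at 127, 119 and 114 FPKM in HET and at 90.9, 105 and 89.7 in WT, given here and for the other genes in the order of replicates 1 to 3. Every HET value was above every WT value, and the gap between the groups was smaller than the range within either. The means were 120 ± 6.64 and 95.3 ± 8.63 (SD, n = 3 libraries each), and the log2 fold change of FPKM + 1 was 0.33 (95% confidence interval 0.14 to 0.53, limma adjusted p = 0.0154). Leaving out WT replicate 1 or WT replicate 3 raised the adjusted p to 0.0691 and 0.0709.

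Nqo1 encodes the quinone reductase that is used as the standard reporter of NRF2 activity. It lay at 40.8, 35.2 and 27.3 FPKM in HET and at 18.0, 19.7 and 15.8 in WT. The groups did not overlap, and the HET libraries were spread more widely than the WT ones, with HET replicate 1 highest and HET replicate 3 lowest. The mean was 1.93-fold higher in HET (34.4 ± 6.76 against 17.8 ± 1.97), with a log2 fold change of 0.90 (95% interval 0.55 to 1.25, limma adjusted p = 0.00313). This value exceeded the log2 fold changes of 98.9% of tested genes.

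Glutathione is built by glutamate-cysteine ligase, whose catalytic subunit is Gclc and whose regulatory subunit is Gclm. Gclc lay at 16.6, 19.7 and 17.0 FPKM in HET and at 8.99, 9.69 and 9.40 in WT. The lowest HET value was far above the highest WT value. The mean was 1.90-fold higher (17.8 ± 1.66 against 9.36 ± 0.354), with a log2 fold change of 0.85 (95% interval 0.67 to 1.03, limma adjusted p = 0.000302). Gclm lay at 21.4, 23.2 and 21.4 in HET and at 19.7, 21.3 and 19.0 in WT. The HET values were above the WT values by a margin smaller than the spread within either group. Its log2 fold change of 0.13 (95% interval -0.02 to 0.29) did not pass (limma adjusted p = 0.141).

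The ratio of the paired subunits was taken within each library, which does not depend on how libraries are scaled. The ratios given here are built from the same values as the single genes and are not separate support. Gclm transcripts exceeded Gclc transcripts 1.29-, 1.18- and 1.25-fold in the HET libraries and 2.19-, 2.20- and 2.02-fold in the WT libraries. The ratio was thus lower in every HET library than in any WT library, by 0.78 on the log2 scale (mean ratio 1.24 ± 0.0557 against 2.14 ± 0.103). An exact permutation test of this difference (two-sided, 20 arrangements) reached p = 0.1, below which 3 libraries against 3 cannot go, and 0.233 after Benjamini-Hochberg adjustment over the 7 ratios computed.

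Gsr, glutathione reductase, regenerates reduced glutathione at the cost of NADPH. It lay at 62.1, 60.5 and 64.3 FPKM in HET and at 64.4, 56.2 and 73.7 in WT. The HET values lay inside the WT range, and the log2 fold change was -0.05 (95% interval -0.28 to 0.19, limma adjusted p = 0.719). With a common sum per library, median-ratio scaling or quantile normalization the estimate turned positive, at most 0.051.

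Txnrd1, the cytosolic thioredoxin reductase, is another user of NADPH. It lay at 79.3, 78.6 and 71.3 FPKM in HET and at 82.5, 89.1 and 88.2 in WT. Every HET value was below every WT value. The log2 fold change of -0.18 (95% interval -0.34 to -0.02) did not pass (limma adjusted p = 0.0614), and without HET replicate 1 it did pass, at -0.21 and adjusted p = 0.0389. The ratio of Txnrd1 to Gsr overlapped between the genotypes (1.23 ± 0.104 in HET, 1.35 ± 0.204 in WT).

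Srxn1, sulfiredoxin, repairs over-oxidised peroxiredoxins. It lay at 79.7, 89.2 and 95.1 FPKM in HET and at 91.0, 94.3 and 96.3 in WT. The groups overlapped, with HET replicate 1 lowest of all libraries. The log2 fold change was -0.10 (95% interval -0.28 to 0.09, limma adjusted p = 0.337), and it was 0.0033 with median-ratio scaling.

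G6pdx encodes glucose-6-phosphate dehydrogenase, which commits glucose to the pentose phosphate pathway and yields its first NADPH. It lay at 41.1, 40.7 and 40.1 FPKM in HET and at 24.8, 26.4 and 26.9 in WT. The libraries within each genotype were close together, with a coefficient of variation of 1.25% in HET and 4.16% in WT. The log2 fold change was 0.62 (95% interval 0.50 to 0.75, limma adjusted p = 0.000281).

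Pgd encodes 6-phosphogluconate dehydrogenase, which yields the next NADPH of the pathway. It was the most abundant member in both genotypes, at 170, 160 and 167 FPKM in HET and at 140, 140 and 142 in WT. The groups did not overlap and the shift was small. The log2 fold change was 0.24 (95% interval 0.10 to 0.37, limma adjusted p = 0.0127), and leaving out any 1 of the 3 WT libraries raised the adjusted p to between 0.0537 and 0.0612. Pgd exceeded G6pdx 4.13-, 3.93- and 4.16-fold in HET and 5.63-, 5.30- and 5.27-fold in WT. This ratio was lower in every HET library, by 0.41 on the log2 scale (exact two-sided permutation p = 0.1, 0.233 adjusted over the 7 ratios).

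Hmox1, the inducible heme oxygenase, was the least abundant member and the most variable in HET. It lay at 0.891, 1.67 and 3.26 FPKM in HET, and at 1.85, 1.91 and 1.83 in WT. The HET values lay on both sides of the WT values, and their coefficient of variation was 62.2% against 2.15% in WT. The log2 fold change of -0.04 (95% interval -0.66 to 0.58, limma adjusted p = 0.908) turned to 0.24 without HET replicate 1. It was 0.025 with median-ratio scaling and 0.26 with quantile normalization. Its constitutive relative Hmox2 was more even, at 21.6, 21.3 and 19.8 FPKM in HET and 22.5, 23.4 and 24.2 in WT, and did not pass (limma adjusted p = 0.0678).

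Macrophages, which break down heme from red cells, are a known source of Hmox1, and other heme and iron transcripts were therefore read in the same libraries. The 9 macrophage markers summed to 99.7, 132 and 171 FPKM in HET replicates 1 to 3, so the library lowest in Hmox1 was lowest in these markers and the library highest in Hmox1 was highest. The WT sums were 244, 244 and 262, with Hmox1 no higher than in HET replicate 3. The 4 globin genes measured summed to 483, 123 and 126 FPKM in HET and to 53.9, 54.1 and 59.3 in WT. Slc40a1, the iron exporter ferroportin, stood at 15.6 FPKM in HET replicate 1, at 1.19 and 1.01 in HET replicates 2 and 3, and at 3.62 to 4.14 in WT. HET replicate 1 thus stood apart with high globin and ferroportin and low Hmox1. The part of macrophages or blood in the Hmox1 values was not tested.

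**Figure D2:**
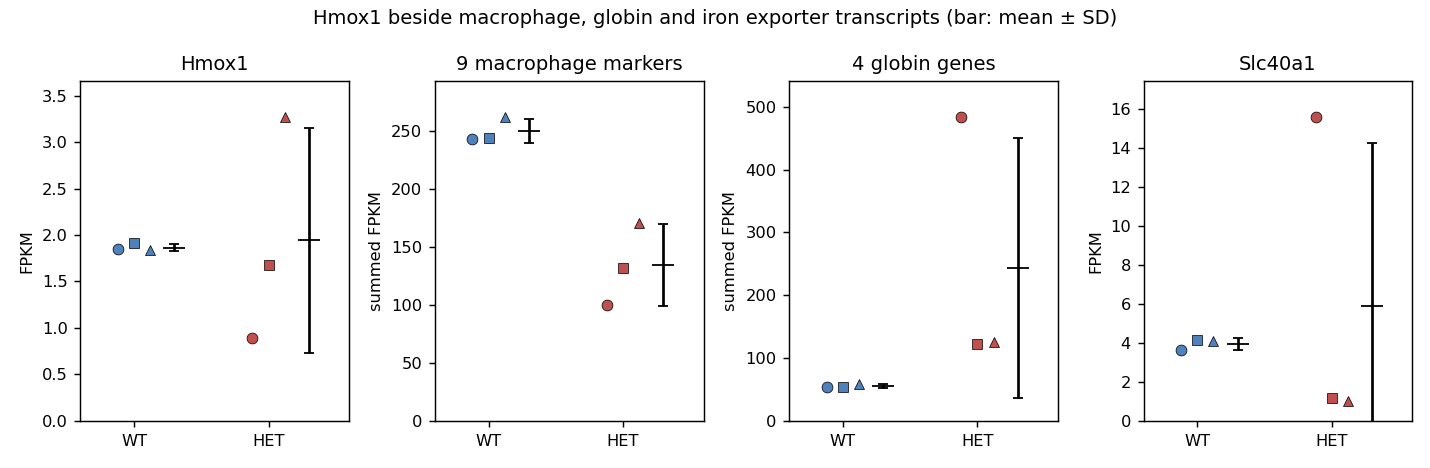
FPKM of Hmox1, summed FPKM of 9 macrophage markers and of 4 globin genes, and FPKM of Slc40a1 (vertical axes) in the WT and HET libraries, with circle, square and triangle for replicates 1, 2 and 3 and a bar for mean ± SD, cut at 0 for Slc40a1. HET replicate 1 is lowest in Hmox1 and macrophage markers and highest in globins (483) and Slc40a1 (15.6).

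In WT the order of levels from high to low was Pgd, Nfe2l2, Srxn1, Txnrd1, Gsr, G6pdx, Gclm, Nqo1, Gclc and Hmox1. Neighbours whose WT ranges overlapped were Nfe2l2 with Srxn1 and Gclm with Nqo1. In HET the order was the same except that Nqo1 stood above Gclm. There the ranges of G6pdx and Nqo1 overlapped, while those of Nfe2l2 and Srxn1 did not.

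The response of the target was also set against that of its regulator. Nqo1 stood at 0.321, 0.296 and 0.240 of the Nfe2l2 level in HET and at 0.199, 0.187 and 0.176 in WT. The ratio was higher in every HET library, by 0.60 on the log2 scale (exact two-sided permutation p = 0.1, 0.233 adjusted over the 7 ratios). The ratio of Nfe2l2 to its repressor Keap1 overlapped between genotypes (6.36 ± 0.316 in HET, 5.97 ± 0.429 in WT, exact p = 0.3). The ratio of Nfe2l2 to the competitor Bach1 was 15.4, 9.24 and 7.61 in HET and 6.82, 7.78 and 6.02 in WT, with an overlap through HET replicate 3 (exact p = 0.2). The ratio of Hmox1 to Hmox2 gave an exact p of 0.9.

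**Figure D3:**
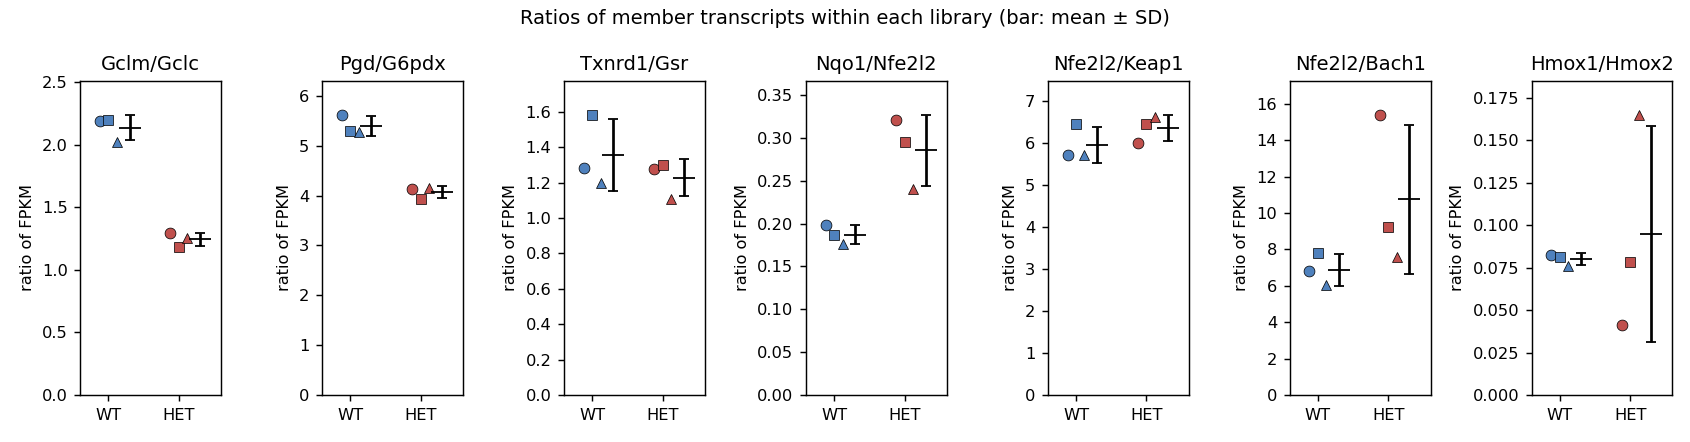
Ratio of 2 FPKM values within a library (vertical axes, from 0) for 7 pairs of genes, with circle, square and triangle for replicates 1, 2 and 3 of WT and HET and a bar for mean ± SD. Gclm/Gclc and Pgd/G6pdx are lower and Nqo1/Nfe2l2 is higher in all HET libraries than in any WT library, and the other 4 pairs overlap.

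Since stromal and immune markers were lower in HET while none of the 7 general epithelial markers was, the fit was repeated with each library scaled to the 7 epithelial markers, an alternative chosen after the data were seen. Nqo1, Gclc and G6pdx remained higher in HET, at log2 fold changes of 0.74, 0.70 and 0.47 (limma adjusted p = 0.0113, 0.000565 and 0.00222). Nfe2l2 and Pgd no longer passed, at 0.17 and 0.07 (limma adjusted p = 0.223 and 0.484). Srxn1 and Txnrd1 passed in the lower direction, at -0.26 and -0.34 (limma adjusted p = 0.0159 and 0.0217), and Gclm turned to -0.024. Under this scaling 3.44% of all tested genes were called higher and 49.3% lower. It moved the median of all tested genes to -0.25, against -0.12 on the deposited scale.

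**Figure D4:**
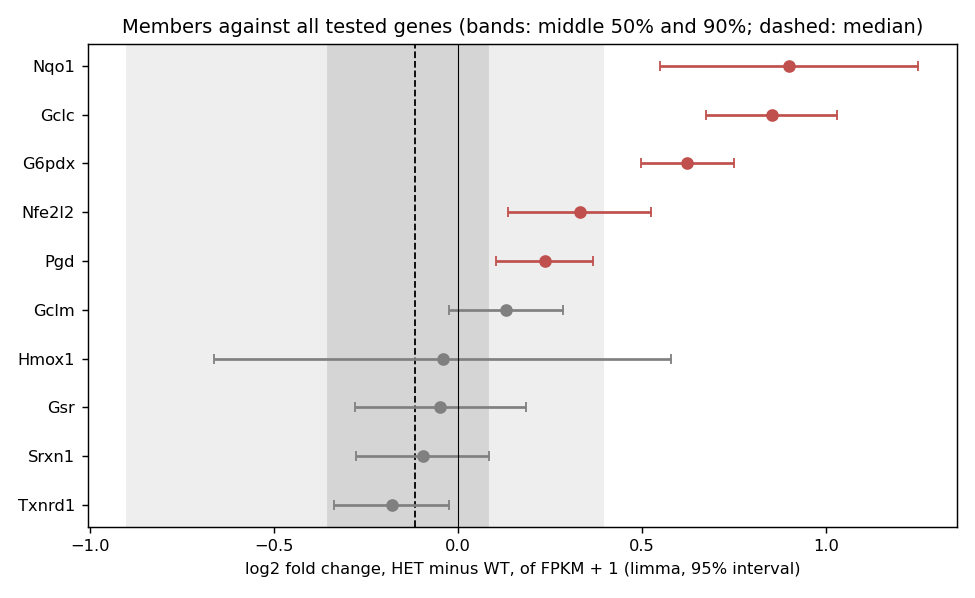
Log2 fold change of FPKM + 1, HET minus WT (horizontal axis), of each member with its 95% interval from limma, in red where the adjusted p is under 0.05. The bands hold the middle 50% and 90% of all 11870 tested genes and the dashed line is their median of -0.12: Nqo1, Gclc and G6pdx have intervals wholly to the right of the wider band, which ends at 0.39, and the 5 members not called lie nearer to the median.

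The antioxidant response element has the core TGACNNNGC, where N is any base, and its TGAC also begins the AP-1 site, which was not searched. This core was looked for on both strands in RefSeq promoters of build GRCm38.p6, which run from 250 bases before a transcript start to 50 bases after it. Promoters were found for 7 members, and Gclc, Gsr and Hmox1 were not searched. The 7 members had 10 starts in all, and 6 of the 7 had a match, against 12.4% of all 32851 promoters and 14.0% of 27025 genes. Windows around the matches that lie before a start are printed from the gene's own strand, with the core in capitals, since they come from members that rose (Nfe2l2, G6pdx) and members that did not pass (Gclm, Txnrd1).
Nfe2l2: tcagcccaccTGACTCCGCcatgccccgga
G6pdx: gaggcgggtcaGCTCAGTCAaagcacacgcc
Gclm: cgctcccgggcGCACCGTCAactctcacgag
Txnrd1: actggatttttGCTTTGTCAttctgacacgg

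The Nfe2l2 window lies at chr2:75704884-75704913 on the minus strand, and its core starts 240 bases before the transcript start and reads in the gene's direction. The G6pdx window lies at chrX:74428918-74428948 on the minus strand, with the core 57 bases before the start, and here as in the next pair the core reads on the opposite strand, as GCNNNGTCA. The Gclm window lies at chr3:122245412-122245442 on the plus strand, 134 bases before the start. The Txnrd1 window lies at chr10:82859103-82859133 on the plus strand, 92 bases before 1 of 3 listed starts. Srxn1 and 1 of the 2 starts listed for Pgd had a match within the transcribed bases, and the Nqo1 window had none. A match was therefore present both in members that rose and in members that did not pass, and it describes the letters of these windows and nothing about binding.

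The wider pathway was read from a list of 77 other genes in 7 roles, of which 73 could be tested. Of these, 13 were higher in HET (17.8%), 14 were lower (19.2%) and 46 did not pass, with a median log2 fold change of -0.01. Over all tested genes the shares were 10.7% higher and 35.7% lower. None of the 27 called genes turned direction under any scaling tried. The counts moved with single libraries: without WT replicate 1 there were 6 higher and 8 lower, without WT replicate 3 there were 7 and 7, without HET replicate 2 there were 8 higher, and without HET replicate 3 there were 21. Without HET replicate 1 there were 22 lower, and without WT replicate 2 there were 9 lower. Of the called genes, 6 higher and 7 lower ones kept their call whichever library was left out. These were Gss, Idh1, Mgst1, Ptgr1, Rpia and Txnip, and Btrc, Ephx1, Gpx2, Gpx3, H6pd, Nadk and Sod3. With scaling to the epithelial markers 5 genes of the list were higher and 19 were lower, beside 3.44% and 49.3% of all tested genes. Those 5 were Gss, Idh1, Mgst1, Ptgr1 and Rpia. The other genes called higher on the deposited scale did not pass there, Txnip among them (0.21, limma adjusted p = 0.0923). All 14 lower genes kept their calls.

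**Figure D5:**
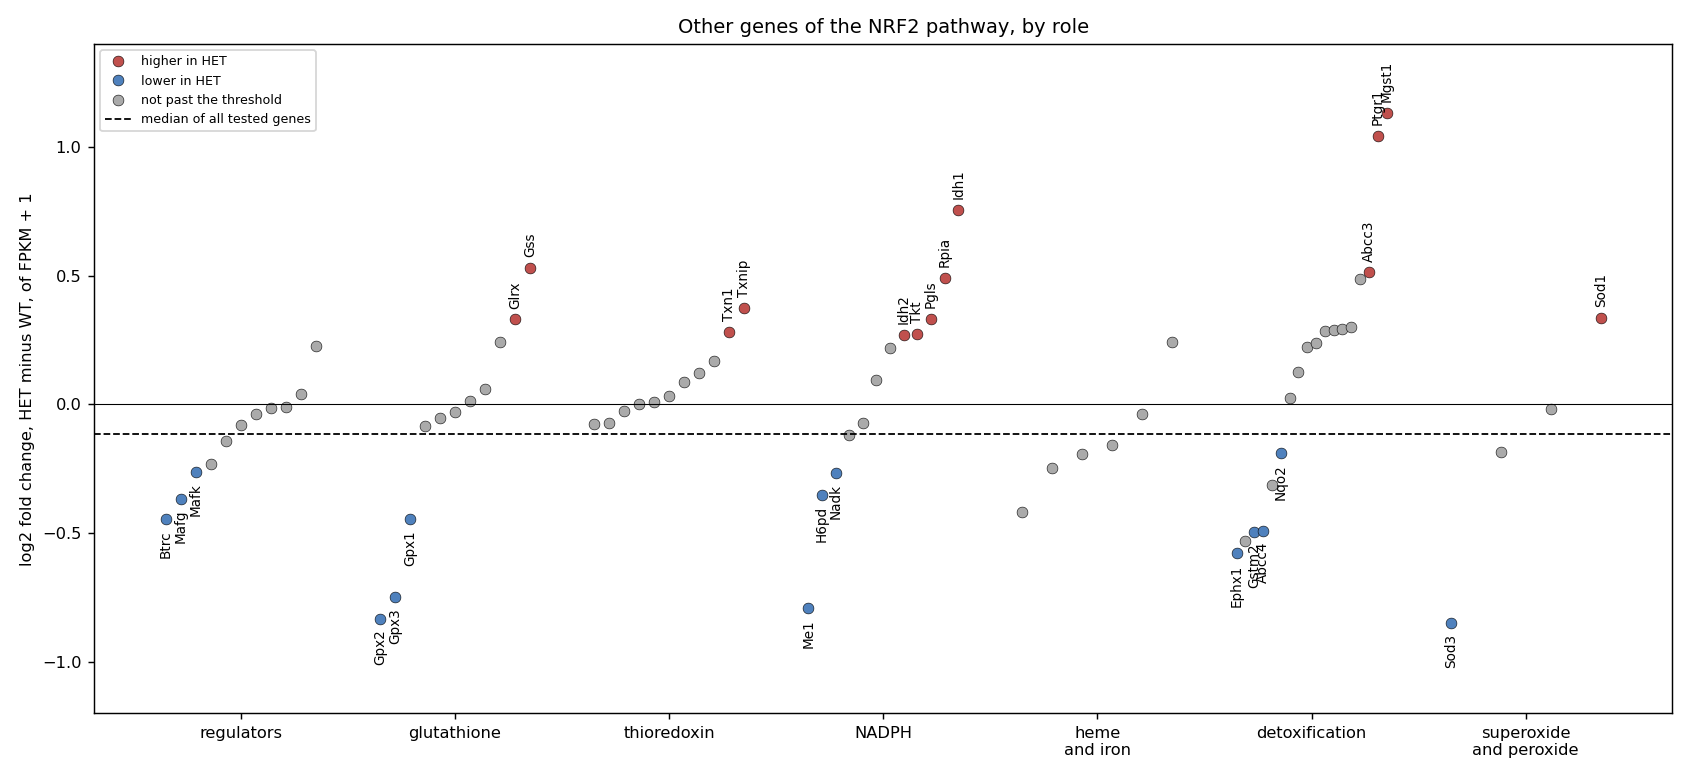
Log2 fold change of FPKM + 1, HET minus WT (vertical axis), of the 73 tested genes of the wider pathway, grouped by role along the horizontal axis and sorted within each role, with red for higher in HET, blue for lower and grey for not past the threshold. Each role except thioredoxin, whose genes all lie above it, holds genes on both sides of the dashed median of all tested genes, with Mgst1 and Ptgr1 highest and Sod3 and Gpx2 lowest.

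Among 11 tested regulators of NRF2, 0 were higher and 3 were lower (27.3%), beside 10.7% higher and 35.7% lower of all tested genes. Keap1 lay at 21.1, 18.4 and 17.2 FPKM in HET and at 15.9, 16.3 and 15.7 in WT, with no overlap, and missed the threshold (log2 fold change 0.23, limma adjusted p = 0.0514). It was called higher under 4 of the 16 alternatives. Of the small MAF proteins that pair with NRF2, Mafg was lower (4.81 ± 0.814 against 6.46 ± 0.603, limma adjusted p = 0.0318). The Mafg call was kept in 1 of the 6 fits that left out a library. Mafk was also lower (14.9 ± 0.643 against 18.1 ± 0.812, limma adjusted p = 0.0108), while Maff did not pass (6.14 ± 0.907 against 5.92 ± 0.272). Btrc, a substrate receptor of a ubiquitin ligase that also marks NRF2, was lower (2.78 ± 0.106 against 4.16 ± 0.416, adjusted p = 0.00343). Bach1 did not pass and was lowest in HET replicate 1 (8.23, 12.9 and 15.0 in HET, 13.3, 13.5 and 14.9 in WT). Cul3, Rbx1, Nfe2l1, Gsk3b and Sqstm1 did not pass either, with log2 fold changes between -0.14 and -0.01, and of these Cul3, Rbx1, Nfe2l1 and Gsk3b changed sign under at least 1 scaling. Nfe2l3 was too low to test, at 0.0399 to 0.110 FPKM.

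In the glutathione group 2 of 11 tested genes were higher (18.2%) and 3 were lower (27.3%), beside 10.7% and 35.7% of all tested genes. Gss, which completes glutathione from the product of Gclc, lay at 65.6, 61.6 and 58.5 FPKM in HET and at 41.0, 44.4 and 42.4 in WT, 1.45-fold higher (limma adjusted p = 0.000929). Glrx, a glutaredoxin that uses glutathione to reduce protein disulfides, was 1.26-fold higher (adjusted p = 0.0131). The lower genes were peroxidases that spend glutathione, while Gpx4 of the same family did not pass (315 ± 45.4 against 264 ± 9.41, adjusted p = 0.115). Gpx2, the epithelial form of the gut and a known NRF2 target, lay at 373, 325 and 358 in HET and at 636, 513 and 752 in WT, 1.80-fold lower (adjusted p = 0.00356). Gpx3, the secreted form, was 1.69-fold lower (adjusted p = 0.00707) and Gpx1, the ubiquitous form, 1.35-fold lower (adjusted p = 0.0449). The Gpx1 call was kept in 1 and the Glrx call in 3 of the 6 fits that left out a library. Slc7a11, the cystine transporter and a known NRF2 target, was too low to test, at 0.0186 to 0.0606 FPKM in HET and 0.141 to 0.200 in WT.

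In the thioredoxin group 2 of 11 genes were higher (18.2%) and 0 were lower, beside 10.7% and 35.7% of all tested genes. Txn1, thioredoxin itself, lay at 842, 800 and 758 FPKM in HET and at 657, 660 and 654 in WT (limma adjusted p = 0.0179, which passed the threshold in 2 of the 6 fits that left out a library). Txnip, which binds and inhibits thioredoxin, was 1.30-fold higher (121 ± 5.25 against 93.1 ± 6.72, adjusted p = 0.00568). None of the 6 peroxiredoxins passed. Prdx6 was at 103 ± 13.5 against 90.9 ± 3.04 and Prdx5 at 212 ± 8.95 against 194 ± 3.25.

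In the NADPH group 5 of 12 genes were higher (41.7%) and 3 were lower (25%), beside 10.7% and 35.7% of all tested genes. Of these 8 calls, those of Idh1, Rpia, H6pd and Nadk were kept whichever library was left out, while Tkt kept its call in 5 of the 6 fits, Me1 in 4, Pgls in 3 and Idh2 in 2. Pgls, the lactonase between G6pdx and Pgd, was 1.27-fold higher (49.6 ± 5.53 against 39.0 ± 0.588, limma adjusted p = 0.0153). Of the 3 enzymes of the oxidative branch of the pentose phosphate pathway, G6pdx was called in every fit that left out a library and Pgls and Pgd in 3 of 6. With scaling to the epithelial markers Pgls, at 0.18, did not pass (adjusted p = 0.253), as was the case for Pgd. Under this scaling Tkt and Idh2, both at 0.11, did not pass either (limma adjusted p = 0.312 and 0.468). Idh1 and Rpia still passed, at 0.59 and 0.34 (limma adjusted p = 0.0189 and 0.0499), and the 3 lower genes of the group kept their calls. Of the branch that rearranges sugars, Rpia and Tkt were higher (29.8 ± 3.47 against 20.8 ± 0.851, adjusted p = 0.00404, and 146 ± 2.08 against 121 ± 5.76, adjusted p = 0.00956). Taldo1 and Rpe did not pass. This split into branches was made after the values were seen. Outside the pathway, Idh1, the cytosolic NADP-dependent isocitrate dehydrogenase, lay at 217, 198 and 161 in HET and at 109, 129 and 101 in WT, 1.70-fold higher (adjusted p = 0.00409). Idh2, its mitochondrial counterpart, was 1.22-fold higher (adjusted p = 0.0349).

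The 3 lower genes of the NADPH group were also known suppliers of the cofactor. Me1, the cytosolic malic enzyme and a known NRF2 target, lay at 10.2, 10.8 and 5.90 FPKM in HET and at 15.4, 13.3 and 19.1 in WT (limma adjusted p = 0.0237). H6pd, which does the work of G6pdx and its lactonase inside the endoplasmic reticulum, was 1.34-fold lower (adjusted p = 0.0119). Nadk, the kinase that makes NADP from NAD, was 1.21-fold lower (48.7 ± 1.41 against 58.8 ± 1.42, adjusted p = 0.0064).

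None of the 6 heme and iron genes passed, beside 46.4% of all tested genes called in either direction. The ferritin chains Fth1 and Ftl1 varied among HET libraries as Slc40a1 did, with Fth1 at 1789, 1094 and 933 FPKM in HET and 1600, 1714 and 1591 in WT. Blvra, biliverdin reductase, was at 20.9 ± 2.53 against 17.4 ± 1.14 (limma adjusted p = 0.0769).

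Among 18 tested detoxification genes 3 were higher (16.7%) and 4 were lower (22.2%), beside 10.7% and 35.7% of all tested genes. Mgst1, a microsomal glutathione transferase, lay at 266, 249 and 243 FPKM in HET and at 117, 118 and 109 in WT, 2.20-fold higher (limma adjusted p = 8.8e-05). Ptgr1, a reductase of reactive alkenals and prostaglandins, lay at 58.5, 72.5 and 78.0 in HET and at 32.6, 32.4 and 34.3 in WT, 2.10-fold higher (adjusted p = 0.000488). The exporter Abcc3 was higher (21.5 ± 5.92 against 14.4 ± 0.778, adjusted p = 0.0437). Ephx1, the microsomal epoxide hydrolase, was 1.57-fold lower (6.06 ± 0.59 against 9.52 ± 0.534, adjusted p = 0.00146), and Nqo2, the relative of Nqo1, was 1.15-fold lower (10.1 ± 0.371 against 11.7 ± 0.315, adjusted p = 0.0263). The Nqo2 call was kept in 1 of the 6 fits that left out a library, and it was lost with a common sum per library, median-ratio scaling and quantile normalization. The exporter Abcc4 and the transferase Gstm2 were the other lower genes, at adjusted p = 0.0028 and 0.0493. Abcc4 lay at 0.381, 0.474 and 0.622 FPKM in HET and at 1.02, 1.15 and 1.11 in WT. It passed the filter on low values only through the WT libraries, and it could be tested in only 3 of the 6 fits that left out a library. Its call, also counted among the lower genes of the wider list, is therefore not independent of the filter. The calls of Abcc3 and Gstm2 were each kept in 2 of the 6 fits. Aox1 and Aldh3a1 were too low to test. Glutathione transferases of 1 class resemble each other in sequence, and how fragments were divided among them is uncertain.

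Of the 4 enzymes that remove superoxide and hydrogen peroxide, Sod1, the cytosolic dismutase, was higher (411 ± 56.2 against 324 ± 8.07 FPKM, limma adjusted p = 0.0344, kept in 2 of 6 such fits). Sod3, the extracellular dismutase, lay at 1.03, 1.52 and 1.50 in HET and at 3.06, 3.24 and 3.35 in WT, 2.38-fold lower (adjusted p = 0.000721). The mitochondrial Sod2 did not pass (14.8 ± 1.39 against 16.9 ± 0.305), nor did Cat, catalase (103 ± 11.5 against 104 ± 8.62).

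For 3 members the genes with the most similar profile over the 6 libraries were sought, by the root mean square difference of log2 values after each gene was centred on its own mean. Nearest to Nfe2l2 were Reep4, Slc26a3 and Abcd3, at differences of 0.0227, 0.0304 and 0.0322. Nearest to Nqo1 were Leap2, Pfkl and Idh1, at 0.0802, 0.0839 and 0.0881. Nearest to Gclc were Slc47a1, Per2 and Tsc22d3, at 0.0548, 0.0598 and 0.0634. None of these lists held another member, and with 2 genotypes a small difference mostly reflects a shared size of shift.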

How the data were processed

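The authors deposited FPKM for 25416 rows, 1 column per library, per the file headers. Genome build GRCm39 is named in the submitters' processing notes, while the aligner, counter, annotation and strand setting were not stated. Without a strand setting, reads of a gene and of an antisense partner are not separable. FPKM is relative to the library total, so a change in abundant genes shifts the others. Here 11870 rows that reached 1 FPKM in 3 or more libraries entered the test, on log2(FPKM + 1), a pseudocount that understates changes of low genes, with limma 3.58.1 in R 4.3.3 (eBayes with trend, genotype as the only term, Benjamini-Hochberg adjusted p under 0.05 over all tested genes). The script was tested on simulated data. Fold changes are ratios of mean FPKM. Ratios within libraries were compared by exact permutation in Python 3.11.15.

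No 2 libraries were identical (0 pairs). P-values measure the spread between libraries, which may be technical. Depth was read from the lowest FPKM times the longest GENCODE transcript length, as a rough estimate. The members and lists were chosen with earlier results of these data known. Named genes are the members, all tested regulators, and for other roles up to 4 with the largest moderated statistic plus those of a direction with 5 or fewer calls. Alternatives were pseudocounts of 0.1 and 0.01, no filter, a mean FPKM of at least 5, 4 scalings, the replicate number as a block, eBayes without trend, and leaving out each library. The labels give no batch, so genotype and any batch cannot be told apart.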

Additional observations from a re-analysis of the deposited data

How the results depend on the processing

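Nqo1, Gclc and G6pdx were called higher under all 16 alternatives, with log2 fold changes of 0.74 to 1.05, 0.70 to 0.95 and 0.47 to 0.72. The count of members called higher was 6 with median-ratio scaling or quantile normalization, where Gclm joined, and 3 higher and 2 lower with epithelial marker scaling. Leaving out 1 library gave 3 to 5 members higher and 0 to 1 lower. Over all 11870 tested genes, 1269 were higher and 4235 lower. A mean FPKM of at least 5 left 7341 genes to test, of which 944 were higher and 1853 lower. On all 11870 genes, median-ratio scaling gave 2334 higher and quantile normalization 2900 higher and 2249 lower. Epithelial marker scaling gave 408 higher and 5848 lower. Leaving out 1 library gave 696 to 1583 higher and 2459 to 4417 lower. For the wider list, a mean FPKM of at least 5, under which fewer of its genes were tested, gave 9 lower. Median-ratio scaling gave 22 higher, quantile normalization 20 higher and 8 lower, and epithelial marker scaling 5 higher and 19 lower. Leaving out 1 library gave 6 to 21 higher and 7 to 22 lower. The median shift over the whole table, -0.12 on the log2 scale as deposited, was -0.03 with median-ratio scaling, 0.04 with quantile normalization and -0.25 with epithelial marker scaling. Fits without a library or with fewer genes rest on less data, and counts rose in some fits without a library and fell in others. The cause of these moves was not tested.

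Genes not called changed sign as follows. With a common sum per library: Gsr 0.0045, Cul3 0.012, Rbx1 0.04, Nfe2l1 0.037 and Cat 0.036. With median-ratio scaling: Hmox1 0.025, Gsr 0.051, Srxn1 0.0033, Cul3 0.057, Rbx1 0.085, Nfe2l1 0.081, Gsk3b 0.0077 and Cat 0.082. With quantile normalization: Hmox1 0.26, Gsr 0.0063, Cul3 0.036, Rbx1 0.061, Nfe2l1 0.068, Gsk3b 0.0695 and Cat 0.034. With epithelial marker scaling: Gclm -0.024, Maff -0.10 and Prdx5 -0.0397. Leaving out 1 library gave ranges that crossed 0 for Hmox1 (-0.35 to 0.24), Nfe2l1 (-0.034 to 0.023), Rbx1 (-0.12 to 0.11), Maff (-0.053 to 0.13), Cat (-0.086 to 0.073), Gsr (-0.14 to 0.049) and the Hmox1/Hmox2 ratio (-0.49 to 0.51).

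The replicate numbers were not taken as pairs in the main fit. The deviations of same-numbered libraries correlated at -0.029, 0.13 and 0.32. HET replicate 1 was closest to WT replicate 2 (0.25), while HET replicates 2 and 3 were each closest to the WT library of the same number. These values do not decide whether the libraries were paired, so the fit was also run with the replicate number as a block. With the replicate block, 5 members were higher and 0 lower, 14 and 12 genes of the wider list were called, and 1167 and 3915 of all genes. The block cannot move the mean difference of a ratio in a balanced design, and the exact permutation p for the 7 ratios became 0.25 to 1, of which 0.25 is the smallest that 3 pairs allow.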

Other observations

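Several detoxification genes that were not called shared an order of libraries within each genotype, noticed after their values were seen. Gsta1 lay at 441, 241 and 136 FPKM in HET and at 206, 264 and 161 in WT, by replicate number. Gstm3 lay at 156, 97.7 and 57.6 in HET and at 116, 155 and 93.9 in WT, and Cbr1, carbonyl reductase, at 185, 153 and 115 and at 120, 131 and 110. In each, HET replicate 1 was highest and HET replicate 3 lowest in HET, and WT replicate 2 was highest and WT replicate 3 lowest in WT. This order was held by 8 of 18 tested detoxification genes, counting Gsta1, Gstm3 and Cbr1 and also Mgst1 and Abcc3, which were called higher. It was held by 19 of 73 tested genes of the wider pathway (26.0%), those 8 included, against 6.05% of all tested genes. Since the order was read from genes that are then counted, these shares describe it and do not test it. Among the members Nfe2l2 and Nqo1 had it.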
